A study of Mus musculus with 20 samples.

Results

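The Kruppel-like factors are zinc finger transcription factors, and 10 of their genes were followed through mouse intestinal epithelium: *Klf2*, *Klf3*, *Klf4*, *Klf5*, *Klf6*, *Klf7*, *Klf10*, *Klf11*, *Klf13* and *Klf15*. They were taken from a list of named genes that leaves out *Klf9*, which some of the organoids overexpress. All 10 were matched by Ensembl identifier, out of 17 *Klf* genes in the annotation and 54838 gene rows in the files. Members of the family bind GC-rich and CACCC sequences through closely similar fingers, and differ in the activators or repressors they recruit. In the gut, *Klf5* is known from dividing crypt cells and *Klf4* from growth-arrested and goblet cells of the upper epithelium, and the pair often act in opposite directions. *Klf6*, *Klf10* and *Klf2* respond within a short time to growth factors, TGF-beta or stress.

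RNA was sequenced in 20 libraries of C57BL/6 mouse cells, 12 from sorted crypt cells and 8 from intestinal organoids, which are crypt cultures grown in Matrigel. The tissue libraries were labelled *Mettl3*-/- at day 3 (1 library in each of the Lgr5-high and Lgr5-low gates), *Mettl3*-/- at day 4 (2 in each gate), *Mettl3*-/- at day 6 (2, with no gate in their labels), and wild type, untreated (2 in each gate). *Mettl3* encodes the catalytic subunit of the mRNA m6A methyltransferase, and the Lgr5-EGFP reporter sorts crypt stem cells into the high gate. The knockout mice, abbreviated KO here, carried *Mettl3* fl/fl, Lgr5-EGFP-IRES-CreERT2 and Villin-CreERT2, so deletion ran in the whole intestinal epithelium, and tamoxifen was given at 20 mg/ml for 4 days. The protocol text also has *Mettl3* fl/fl mice without Cre injected, while the wild-type (WT) libraries are labelled untreated, so KO and WT tissue may differ in tamoxifen. The header of the first day 6 file names a low gate. The organoids came from mice of the same 3 alleles, in 4 groups of 2 libraries: *Mettl3*-/- with AKFP (retroviral *Ascl2*, *Klf9*, *Fosb* and *Purb*), *Mettl3*-/- with AKF (the same without *Purb*), *Mettl3*-/- alone, and wild type. The 3 *Mettl3*-/- groups had 4-OHT for 2 days and the WT group had ethanol for 2 days, and an effect of 4-OHT cannot be told apart from the deletion. Infected organoids were selected with puromycin, and 4-OHT also switched on the added factors. The titles of the KO and WT organoids alone hold "m3-flag", which the labels do not explain. The labels do not say that the libraries within a group are separate animals or cultures, so the p-values rest on a spread between libraries that may be technical.

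Values are FPKM, fragment counts corrected for transcript length and library size (inferred for the organoids, whose table names no unit), so levels of genes of different length can be set side by side. Depth was roughly estimated at 14.9 to 25.5 M fragments a library (M, 1e6). Gene-level *Mettl3* was at 2.75 to 4.99 FPKM in the 8 KO tissue libraries and 3.42 to 4.86 FPKM in the 4 WT ones, and at 3.33 to 4.22 FPKM in the 6 *Mettl3*-/- organoid libraries and 3.23 to 3.56 FPKM in the 2 WT ones. It thus did not separate the labels, and a gene total also counts exons outside the deleted part, so "KO" stands for the label throughout. Epithelial markers summed to 2460 to 4770 FPKM in tissue, while 5 of 6 endothelial, 5 of 8 immune and 5 of 7 stromal markers stayed under 1 FPKM in every tissue library. Stromal markers summed to 1.42 and 2.22 FPKM in WT Lgr5-high and 4.14 and 4.59 FPKM in WT Lgr5-low cells. In KO cells of day 4 they summed to 6.30 and 19.1 FPKM in the high and 11.7 and 24.6 FPKM in the low gate. A pair of libraries stood apart: alpha-defensins and lysozyme took 27.5% of all FPKM in the first KO day 4 Lgr5-high library and 45.6% in the first KO day 6 library, against 15.0% to 26.8% in the other 10. Mitochondrial transcripts took 6.15% and 4.33% in the same libraries, against 8.87% to 14.2% in the other 10. Fewer cells of a type and less RNA per cell cannot be told apart in these bulk samples.

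*Klf5* had the highest tissue level of the 10, with a median of 61.2 FPKM over 12 libraries (range 43.4 to 111), and lay above *Klf4* in 12 of 12. *Klf4* (median 33.2 FPKM) and *Klf6* (31.3 FPKM) followed, and changed places from library to library, *Klf4* being higher in 7 of 12. *Klf10*, which encodes a TGF-beta-inducible repressor, came next at 16.8 FPKM, and exceeded *Klf3* in 11 of 12. *Klf3* (11.8 FPKM), *Klf13* (9.91), *Klf11* (7.14) and *Klf2* (6.72) had neighbouring medians, and both *Klf13* against *Klf11* and *Klf11* against *Klf2* were ordered the same way in only 7 of 12 libraries. *Klf7* (1.67 FPKM) and *Klf15* (1.58 FPKM) were near the floor of the range, with *Klf7* higher in 7 of 12. In organoids *Klf6* (median 66.0 FPKM) and *Klf5* (64.8 FPKM) shared the top, each being higher in 4 of 8 libraries, *Klf7* stood at 5.51 FPKM and *Klf15* at 0.383 FPKM. Of the 7 *Klf* genes outside the list, *Klf16* and *Klf9* were expressed (9.05 to 19.5 FPKM and 2.84 to 19.2 FPKM in tissue), and *Klf1*, *Klf8*, *Klf12*, *Klf14* and *Klf17* stayed under 1 FPKM in every library.

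Several members have neighbours or copies that limit their values. *Klf3*, *Klf7* and *Klf13* overlap other annotated genes, and counting is not stated to use strand, so their levels are uncertain. Of the 50-base words in *Klf7* transcripts 38.2% also occur in transcripts of other genes, all in *Gm26649*, against 3.48% for *Klf3* and 0% to 0.263% for the other 8. About 15 to 44 fragments stood behind each *Klf15* value in organoids and 66 to 175 in tissue, against at least 88 for each other member in any library.

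Promoter sequence was available for 8 of the 10 genes, in RefSeq's table of the GRCm38.p6 build, with none for *Klf5* and *Klf10*. The stretches of *Klf4*, *Klf6*, *Klf11* and *Klf2* are shown because these 4 genes were all higher in KO than in WT organoids, described below, and the RNA of no other matched member passed that test. Each runs 5′ to 3′ on the gene's own strand from position -250, counted from the RefSeq start. The stretch ends at -51, or for *Klf11* at -98, where the annotated GENCODE gene begins. Capitals mark GC boxes, the letters GGGCGG read on either strand.
Klf4, chr4:55532526-55532725, minus strand: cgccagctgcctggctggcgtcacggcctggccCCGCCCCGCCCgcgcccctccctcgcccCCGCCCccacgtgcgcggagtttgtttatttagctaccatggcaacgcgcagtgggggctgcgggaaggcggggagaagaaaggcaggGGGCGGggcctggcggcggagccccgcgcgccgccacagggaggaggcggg
Klf6, chr13:5861239-5861438, plus strand: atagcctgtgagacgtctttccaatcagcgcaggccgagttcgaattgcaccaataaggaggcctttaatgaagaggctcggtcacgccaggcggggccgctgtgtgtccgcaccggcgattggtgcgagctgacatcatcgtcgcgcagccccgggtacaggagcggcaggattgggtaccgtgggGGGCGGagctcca
Klf11, chr12:24651121-24651273, plus strand: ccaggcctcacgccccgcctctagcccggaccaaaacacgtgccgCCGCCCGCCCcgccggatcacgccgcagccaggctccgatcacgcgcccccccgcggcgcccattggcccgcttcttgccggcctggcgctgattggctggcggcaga
Klf2, chr8:72318812-72319011, plus strand: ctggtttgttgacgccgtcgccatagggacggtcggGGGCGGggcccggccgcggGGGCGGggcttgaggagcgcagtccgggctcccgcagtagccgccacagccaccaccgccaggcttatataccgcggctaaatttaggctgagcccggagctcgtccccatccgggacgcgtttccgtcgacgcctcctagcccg

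GC boxes were counted in the 200 bases from -250 to -51 on both strands, and 8 of 8 members held at least 1, against 24.6% of 32851 promoters of 27025 genes in the same table. *Klf3* held 6, *Klf4* 4, *Klf2* and *Klf11* 2 each, and *Klf6*, *Klf7*, *Klf13* and *Klf15* 1 each. Matches may overlap: in *Klf4* and *Klf11* a pair of GC boxes share bases, and in *Klf3* a GC box and a CACCC box do. The CACCC box (letters CACCC, either strand) was in 3 of 8, namely *Klf3* with 4 matches, *Klf7* with 3 and *Klf15* with 1, and in 44.4% of all promoters. No member held the cAMP response element TGACGTCA or a CArG box, the serum response element core, in this window. These are in 0.828% and 1.16% of all promoters. A match describes letters only, and the base composition of these promoters was not set against that of others.

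**Figure D1:**
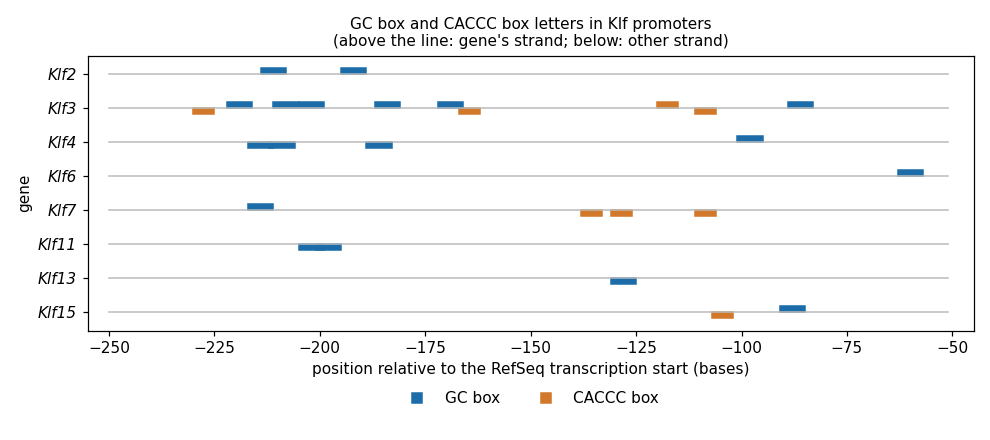
Matches to the GC box and the CACCC box in the promoters of 8 *Klf* genes, from 250 to 51 bases before the RefSeq transcription start (horizontal axis, bases), with blocks above the line on the gene's strand and below it on the other strand. Every gene has at least 1 GC box, and *Klf3* has the most, with 6, while CACCC boxes are in *Klf3*, *Klf7* and *Klf15*.

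The first question was which *Klf* genes differed after *Mettl3* deletion in sorted stem cells. At day 4 in the Lgr5-high gate, *Klf10* was lower in KO than in WT cells, and it was the only 1 of the 10 members to pass an adjusted p of 0.05. In the same test 1.05% of 12899 genes were called. The fitted difference was negative in 10 of 10 members, though for *Klf4* and *Klf15* it was within 0.02 of no change. Its median was -0.70 on the log2(FPKM + 1) scale, against -0.02 over all genes tested. The first KO library is 1 of the pair that stood apart. In the second KO library *Klf4* (29.3 FPKM) and *Klf15* (1.85 FPKM) lay above both WT libraries. *Klf3* (12.7 FPKM) and *Klf13* (11.0 FPKM) lay between the WT libraries there. The KO libraries lay wholly below the WT ones for 6 members: *Klf2*, *Klf5*, *Klf6*, *Klf7*, *Klf10* and *Klf11*. The same held for 21.6% of all genes tested, which is the background for that count.

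*Klf10* and *Klf11* encode closely related repressors, induced by TGF-beta, that recruit the Sin3a corepressor. *Klf10* (chromosome 15, 38291463 to 38300706, minus strand) was at 9.45 and 12.7 FPKM in the KO Lgr5-high libraries of day 4, against 25.5 and 32.3 FPKM in WT Lgr5-high libraries. The lowest WT value was thus above the highest KO value, and the difference was -1.31 ± 0.22 (log2, SE, n = 2 each, adjusted p = 0.0359 by limma). The call is narrow: it was lost in 8 of 12 alternatives, with an adjusted p of 0.132 after scaling libraries to equal FPKM sums, 0.173 and 0.35 without the first or the second WT library, and 0.085 without the first KO library, while the difference stayed between -1.51 and -1.11. In the Lgr5-low gate *Klf10* was at 13.4 and 12.6 FPKM in KO cells, against 27.8 and 31.5 FPKM in WT cells. This difference of -1.13 ± 0.22 did not pass (adjusted p = 0.0733). *Klf11* (chromosome 12, 24651274 to 24662789, plus strand) was at 6.80 and 4.46 FPKM in KO and 13.7 and 14.7 FPKM in WT Lgr5-high cells, and at 6.07 and 2.97 FPKM in KO and 11.3 and 10.4 FPKM in WT Lgr5-low cells. Neither pair overlapped, and neither difference passed (-1.22 ± 0.29, adjusted p = 0.0924, and -1.16 ± 0.29, adjusted p = 0.139).

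In Lgr5-low cells at day 4, 0 of 10 members passed, where 0.473% of all genes did, and 2 members had an unadjusted p under 0.05. The median over the members was -0.10 there, against 0.03 over all genes. The change in Lgr5-high cells minus that in Lgr5-low cells was tested directly. None of the 10 members passed by limma, with 1 at an unadjusted p under 0.05, and 0.0155% of all genes passed. That 1 was *Klf6*, an immediate early gene of injured and activated cells, at -0.93 ± 0.37 (95% interval -1.77 to -0.09, adjusted p = 0.963).

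*Klf6* (chromosome 13, 5861482 to 5870394, plus strand) did not follow the order of days in the high gate. The day 3 KO library was at 40.0 FPKM, the day 4 KO libraries were at 10.4 and 18.7 FPKM, and the WT libraries were at 28.5 and 35.5 FPKM. Day 4 thus lay under WT and day 3 above it, though the day 4 difference of -1.13 ± 0.26 did not pass (adjusted p = 0.0853). It passed with quantile scaling (adjusted p = 0.0416). Without the second KO library the difference was -1.53, which rests on the first KO library alone, 1 of the pair that stood apart. In the low gate *Klf6* was at 39.1 FPKM at day 3, at 26.7 and 27.4 FPKM at day 4, and at 29.1 and 33.6 FPKM in WT cells. At day 6 the KO libraries held 39.2 and 39.6 FPKM. Against KO Lgr5-high cells of day 4, a comparison added after the values were seen, *Klf6* was higher at day 6 by 1.43 ± 0.26 (adjusted p = 0.0314) and was the 1 member of 10 called, where 3.21% of all genes were. That call was lost with equal FPKM sums (adjusted p = 0.165), without the first KO day 4 library (difference 1.03, adjusted p = 0.0951) and without either day 6 library (0.172 and 0.0792). Against KO Lgr5-low cells of day 4 the *Klf6* difference was 0.53 ± 0.26 (adjusted p = 0.653), and 0 of 10 members passed, with none at an unadjusted p under 0.05, where 0.0543% of all genes passed.

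**Figure D2:**
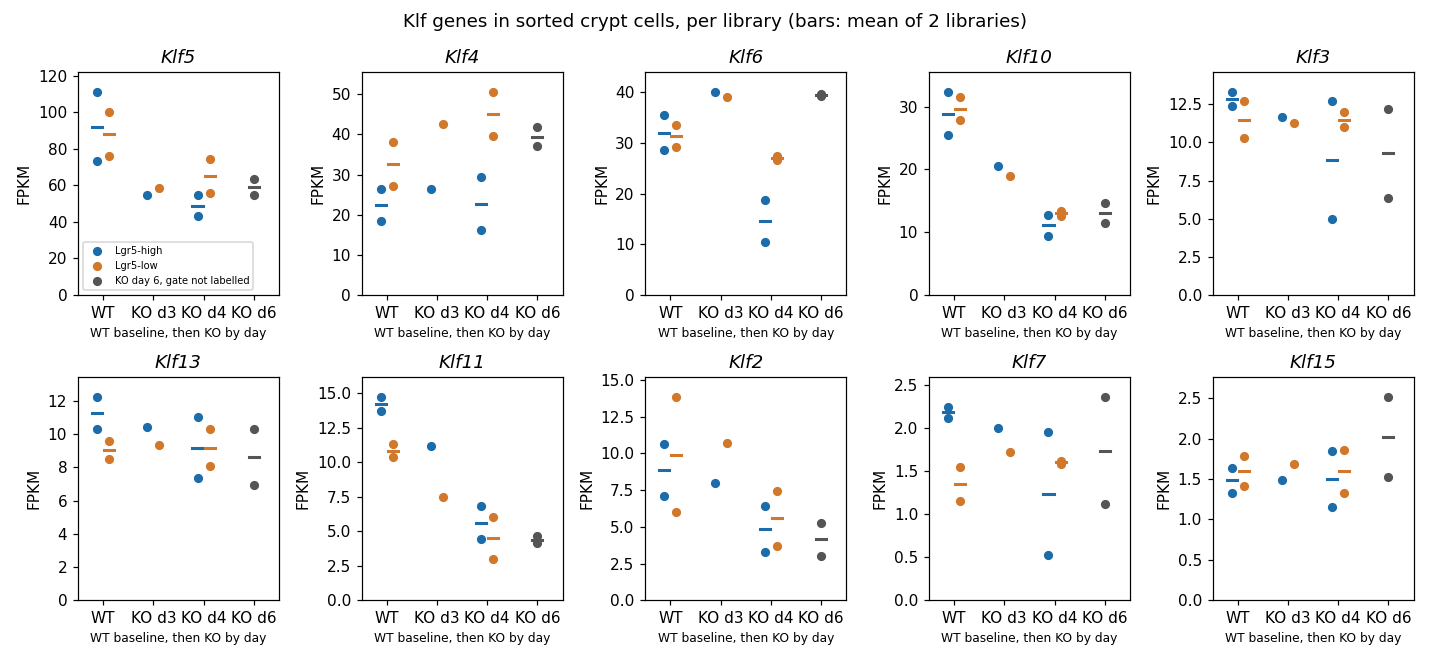
FPKM of the 10 *Klf* genes in each of the 12 tissue libraries (points, 1 per library), by day and colored by gate, with short bars at the mean of groups with 2 libraries, WT standing as the baseline. *Klf10* and *Klf11* are lower in every KO library than in every WT library of the same gate, and at day 6 both are near their day 4 level.

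At day 6 the KO libraries were set against each WT gate in turn. Both comparisons called the same 2 members, *Klf10* and *Klf11*, both lower in KO. This is 2 of 10 members, where 21.9% of all genes were called against Lgr5-high and 11.5% against Lgr5-low, so the share of members called was near that of all genes. The comparisons share their KO libraries. *Klf10* was at 14.6 and 11.4 FPKM in KO day 6 cells, and differed by -1.09 ± 0.22 from WT Lgr5-high cells (adjusted p = 0.0105) and by -1.14 ± 0.22 from WT Lgr5-low cells (adjusted p = 0.0138). *Klf11* was at 4.13 and 4.64 FPKM in KO day 6 cells, and differed by -1.50 ± 0.29 (adjusted p = 0.00929) and -1.14 ± 0.29 (adjusted p = 0.0392). Against WT Lgr5-low cells these calls were lost without any 1 of the 4 libraries compared (*Klf10* adjusted p 0.0504 to 0.126, *Klf11* 0.0878 to 0.184). Against WT Lgr5-high cells *Klf10* was lost without the second WT library (adjusted p = 0.108) and *Klf11* without either WT library (0.0522 and 0.0765) or the first KO library (0.06). *Klf11* was also lost against WT Lgr5-low cells under equal FPKM sums, median-of-ratios and quantile scaling (adjusted p 0.0545 to 0.0612). Leaving out both defensin-rich libraries kept *Klf10* in both day 6 comparisons and *Klf11* against Lgr5-high only (against Lgr5-low, adjusted p = 0.0997).

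Day 3 had 1 KO library a gate and so no test. *Klf10* was at 20.5 FPKM in KO Lgr5-high and 19.0 FPKM in KO Lgr5-low cells, below the WT libraries of the gate in both. *Klf11* was at 11.2 and 7.48 FPKM in the same libraries, also below WT in both. For these genes day 3 lay between WT and day 4 in each gate. *Klf5* was at 54.5 and 58.8 FPKM at day 3, under the 73.4 to 111 FPKM of the 4 WT libraries. *Klf6* was above WT in both gates, and the other members lay within the WT range in at least 1 gate, except *Klf7*, which was below WT in the high gate (2.00 FPKM) and above it in the low gate (1.72 FPKM).

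Immediate early genes, which are switched on within minutes of a stimulus and also during cell dissociation, moved with *Klf10* and *Klf11* in tissue. Of 16 tested, 5 fell at day 4 in Lgr5-high cells, and the median difference was -1.30. *Zfp36*, an mRNA-destabilizing protein gene, changed by -1.46 ± 0.22 (adjusted p = 0.0263), *Jun* by -1.57 ± 0.25 (0.0316) and *Dusp1*, a MAP kinase phosphatase gene, by -1.83 ± 0.30 (0.0325). In Lgr5-low cells 1 of 16 fell, *Zfp36* (-1.45 ± 0.22, adjusted p = 0.0391), with a median of -1.07. At day 6, 10 of 16 fell against Lgr5-high and 7 of 16 against Lgr5-low cells. The part of these genes, of dissociation and of RNA quality in the *Klf10* and *Klf11* values was not tested. Over the 12 tissue libraries the genes whose log2(FPKM + 1) was most like *Klf10*, of 6586 searched, were *Tcim* (Pearson r = 0.942), *Zfp36* (0.94) and *Jup* (0.937). Libraries of 1 group are not independent points and the libraries differ in depth, so r is a description only.

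*Klf5* (chromosome 14, 99298691 to 99315036, plus strand) and *Klf4* (chromosome 4, 55527143 to 55532466, minus strand) were the most abundant pair in tissue. At day 4 *Klf5* was at 43.4 and 54.5 FPKM in KO and 111 and 73.4 FPKM in WT Lgr5-high cells, and at 74.3 and 55.8 FPKM in KO and 100 and 75.9 FPKM in WT Lgr5-low cells. The groups did not overlap in either gate, and the differences of -0.88 ± 0.27 and -0.43 ± 0.27 did not pass (adjusted p = 0.155 and 0.542). *Klf4* was at 16.2 and 29.3 FPKM in KO and 26.5 and 18.4 FPKM in WT Lgr5-high cells, which overlapped (-0.02 ± 0.31, 95% interval -0.73 to 0.69). In the low gate *Klf4* was at 39.7 and 50.5 FPKM in KO and 38.0 and 27.1 FPKM in WT cells, all KO libraries above WT, with a difference of 0.47 ± 0.31 (adjusted p = 0.58). At day 6 *Klf4* was at 37.1 and 41.8 FPKM, above both WT Lgr5-high libraries, and did not pass (0.81 ± 0.31, adjusted p = 0.0973). Against WT Lgr5-high cells it did pass with median-of-ratios scaling (1.0, adjusted p = 0.0402) and with the compared groups fitted alone (0.0469). Against WT Lgr5-low cells the day 6 values overlapped, and the difference did not pass (0.29 ± 0.31, adjusted p = 0.613 by limma). The day 6 labels name no gate.

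Between the gates, 0 of 10 members passed in WT cells by limma, with none at an unadjusted p under 0.05, where 1.2% of all genes passed. *Klf4* was lower in both WT Lgr5-high libraries than in either WT Lgr5-low one (-0.52 ± 0.31, adjusted p = 0.51), and *Klf7*, *Klf11* and *Klf13* were higher in both, none passing. Of all genes tested, 24.3% were lower in this way and 40.1% higher, so the counts of 1 and 3 members did not exceed that background. Between KO gates at day 4, 0 of 10 members and 0% of all genes passed, and 2 members had an unadjusted p under 0.05: *Klf4* (-1.0 ± 0.31, adjusted p = 0.17) and *Klf6* (-0.90 ± 0.26, adjusted p = 0.156). Without the second KO Lgr5-high library the differences were -1.41 for *Klf4* and -1.3 for *Klf6*. These rest on the first KO Lgr5-high library alone, 1 of the pair that stood apart. The stem cell markers summed to at most 3230 FPKM, in a WT Lgr5-high library, and to as little as 93.1 FPKM, in the first KO day 6 library, and goblet and enterocyte markers were highest in the second KO day 4 Lgr5-low library (7620 and 5570 FPKM), which also held the highest *Klf4* value. The part of cell makeup in the *Klf4* values was not tested.

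The ratio of *Klf4* to *Klf5* FPKM within each library does not change when all values of a library are multiplied by the same factor. Quantile scaling can change this ratio. The ratio was chosen after its values were seen, and with 2 libraries a group it was not tested. It was 0.374 and 0.537 in KO Lgr5-high cells at day 4, against 0.24 and 0.251 in WT Lgr5-high cells. In Lgr5-low cells it was 0.534 and 0.905 in KO at day 4, against 0.38 and 0.357 in WT. The day 3 KO libraries held 0.482 in the high and 0.723 in the low gate, and the day 6 KO libraries 0.677 and 0.658. Every KO tissue library was thus above the WT libraries of its gate, and both WT Lgr5-high libraries were below both WT Lgr5-low ones. In organoids the ratio was 0.343 and 0.334 with AKFP, 0.637 and 0.541 with AKF, 0.608 and 0.597 in KO alone, and 0.419 and 0.338 in WT, so that AKFP reached no higher than the WT range and AKF and KO stayed above it.

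**Figure D3:**
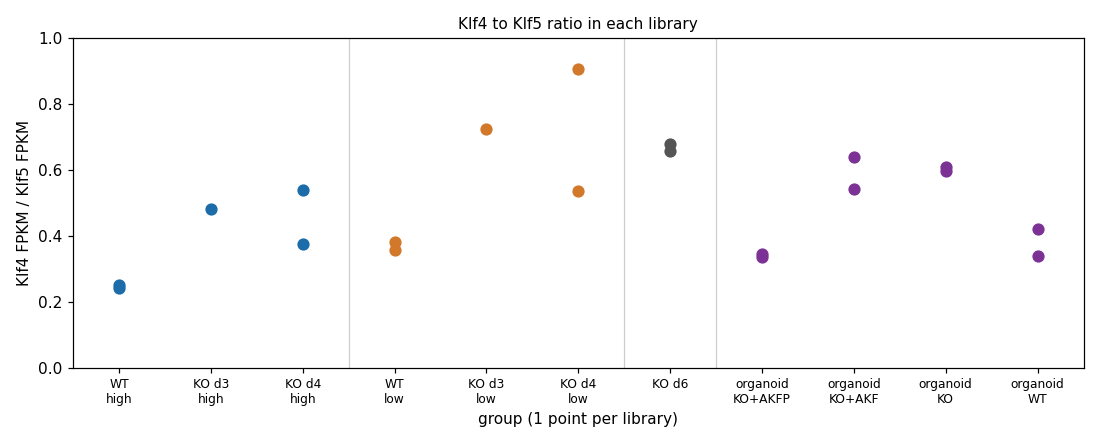
Ratio of *Klf4* to *Klf5* FPKM (vertical axis, no unit) in each of the 20 libraries, 1 point a library, with tissue by gate and day on the left and organoids on the right. KO tissue libraries lie between 0.374 and 0.905 and WT tissue libraries between 0.24 and 0.38, and KO organoids with AKFP (0.334 and 0.343) lie near WT organoids.

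The genes most like *Klf5* over the 12 tissue libraries were *Fbrs* (r = 0.957), *Socs2*, a cytokine signalling suppressor (0.944), and *Nfkbiz*, an atypical IkappaB gene (0.934). For *Klf4* they were *Necap1* (0.956), *Slc37a1* (0.94) and *Wdr1* (0.934), and for *Klf6* they were *Pard6b* (0.876), *Ifngr1* (0.857) and *Cc2d1a* (0.853).

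Genes reported as targets of *Klf4* or *Klf5* in epithelium gave few calls at day 4: 1 of 13 tested rose in Lgr5-high cells and 0 of 13 in Lgr5-low cells. The 1 was *Cdkn1a*, the cell cycle inhibitor p21 (1.48 ± 0.28, adjusted p = 0.0497), which is also a p53 target. At day 6, 3 of 13 rose and 2 fell against WT Lgr5-high cells, with *Cdkn1a* (3.03 ± 0.28, adjusted p = 0.000602) and the goblet mucin *Muc2* (2.77 ± 0.45, adjusted p = 0.00458) higher and *Cdkn1b*, another inhibitor (-1.14 ± 0.21, adjusted p = 0.00801), lower. Against WT Lgr5-low cells 1 rose and 1 fell, *Cdkn1a* and *Cdkn1b*. Of the corepressors and proteins that degrade Klf factors, 0 of 11 passed at day 4 in either gate, and 3 of 11 fell at day 6 against Lgr5-high cells: *Sin3a* (-1.03 ± 0.27, adjusted p = 0.0295), *Hdac2* (-0.88 ± 0.21, 0.0189) and *Ctbp1* (-0.69 ± 0.20, 0.0411). That share is near the 21.9% of all genes called there, and 0 of 11 passed against Lgr5-low cells. Among upstream inputs, 6 of 15 fell against Lgr5-high cells at day 6, among them *Nr3c1*, the glucocorticoid receptor (-1.86 ± 0.38, adjusted p = 0.0105), and *Egr1* (-1.77 ± 0.29, 0.00479). Against Lgr5-low cells 1 of 15 rose at day 6, the TGF-beta receptor gene *Tgfbr2* (1.33 ± 0.27, adjusted p = 0.0156), and 2 fell, *Egr1* (-1.23 ± 0.29, 0.0292) and *Nr3c1* (-1.43 ± 0.38, 0.0429).

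None of the remaining members passed in tissue. *Klf2*, a factor of quiescent endothelial and immune cells, was at 6.39 and 3.27 FPKM in KO and 10.6 and 7.06 FPKM in WT Lgr5-high cells, and at 5.27 and 3.01 FPKM in KO cells of day 6. It did not pass at day 4 (-0.78 ± 0.46, adjusted p = 0.423) or day 6 (-0.95 ± 0.46 against Lgr5-high, adjusted p = 0.17, and -1.02 ± 0.46 against Lgr5-low, adjusted p = 0.195), and its SE was the widest of the 10. Endothelial markers, the cells *Klf2* is best known from, summed to 0.435 to 1.45 FPKM over the tissue libraries. Immune markers summed to 2.55 to 6.03 FPKM, and *Klf2* ranged from 3.01 to 13.8 FPKM. A marker sum and the level of a single gene are different measures, so their sizes cannot be set against each other. At day 6 the immune markers summed to 2.55 and 5.34 FPKM in KO cells, against 4.47 to 6.03 FPKM in WT cells of both gates. The part of immune cells in the *Klf2* values was not tested. *Klf3*, a repressor gene whose product binds CtBP, was at 5.0 and 12.7 FPKM in KO and 12.4 and 13.3 FPKM in WT Lgr5-high cells, the low value being that of the defensin-rich library. *Klf13*, closely related to *Klf9*, ranged from 6.95 to 12.2 FPKM, *Klf7*, known from neurons, from 0.523 to 2.36 FPKM, and *Klf15*, a glucocorticoid-induced regulator of amino acid and glucose metabolism, from 1.15 to 2.51 FPKM over the 12 libraries. *Klf15* had differences of 0.00 ± 0.24 and -0.01 ± 0.24 at day 4 in the high and low gates, with 95% intervals from -0.56 to 0.55 in both. Among 10 metabolic genes known as its targets, *Pdk4*, a brake on glucose oxidation, fell at day 4 in Lgr5-high cells (-1.70 ± 0.29, adjusted p = 0.0393). At day 6 against Lgr5-high cells 2 rose, *Tat* and *Gpt*, and 4 fell, with *Tsc22d3*, a glucocorticoid-induced gene, at -1.63 ± 0.29 (adjusted p = 0.00647).

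In organoids the question was whether the same genes differ after *Mettl3* deletion in culture, and what the added factors do. KO organoids had higher *Klf6*, *Klf4*, *Klf2*, *Klf11* and *Klf10* than WT organoids: 5 of 9 members tested passed, all higher, where 28.2% of 12657 genes passed. *Klf15* stayed under 0.721 FPKM in 7 libraries and at that value in the other, and was not tested. The median difference over the 9 members was 0.40, against 0.01 over all genes.

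*Klf6* had the largest difference, at 69.1 and 72.3 FPKM in KO and 38.3 and 43.2 FPKM in WT organoids (0.78 ± 0.10, adjusted p = 0.00252). *Klf4* was at 38.4 and 37.0 FPKM in KO and 27.0 and 23.8 FPKM in WT organoids (0.55 ± 0.09, adjusted p = 0.00527). Both stayed called in 11 of 11 alternatives. *Klf10* was at 21.3 and 21.4 FPKM in KO and 15.5 and 16.4 FPKM in WT organoids (0.40 ± 0.07, adjusted p = 0.00815, and 0.0503 with equal FPKM sums). *Klf11* was at 10.5 and 10.2 FPKM in KO and 7.65 and 7.40 FPKM in WT organoids (0.41 ± 0.08, adjusted p = 0.0114). It lost its call without the second WT library or either KO library (adjusted p = 0.0612, 0.064 and 0.0538). *Klf2* was at 8.33 and 6.21 FPKM in KO and 4.75 and 4.81 FPKM in WT organoids (0.51 ± 0.14, adjusted p = 0.0386), and 8 of 11 alternatives lost it, among them leaving out the first KO library (0.32, adjusted p = 0.171) or either WT library (0.127 and 0.122) and equal sums (0.076). In all 5 genes the KO values lay above the WT values, as they did for 36.6% of all genes tested. These 5 had already been selected by the test, so this adds no separate support.

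*Klf3* went the other way in KO organoids without passing, at 12.2 and 12.9 FPKM in KO and 14.1 and 16.3 FPKM in WT (-0.26 ± 0.10, adjusted p = 0.0881). With median-of-ratios scaling it was called lower (-0.29, adjusted p = 0.0428). *Klf13* averaged 11.2 ± 0.524 FPKM in KO and 9.46 ± 0.80 FPKM in WT (SD, n = 2 each), the KO libraries being higher (0.23 ± 0.08, adjusted p = 0.0801). *Klf5* was at 63.2 and 61.9 FPKM in KO and 64.5 and 70.5 FPKM in WT (-0.11 ± 0.07, 95% interval -0.27 to 0.05), and *Klf7* overlapped (-0.03 ± 0.10, 95% interval -0.27 to 0.22). *Klf9* itself, outside the list, rose in KO organoids (0.40 ± 0.07, adjusted p = 0.00667).

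**Figure D4:**
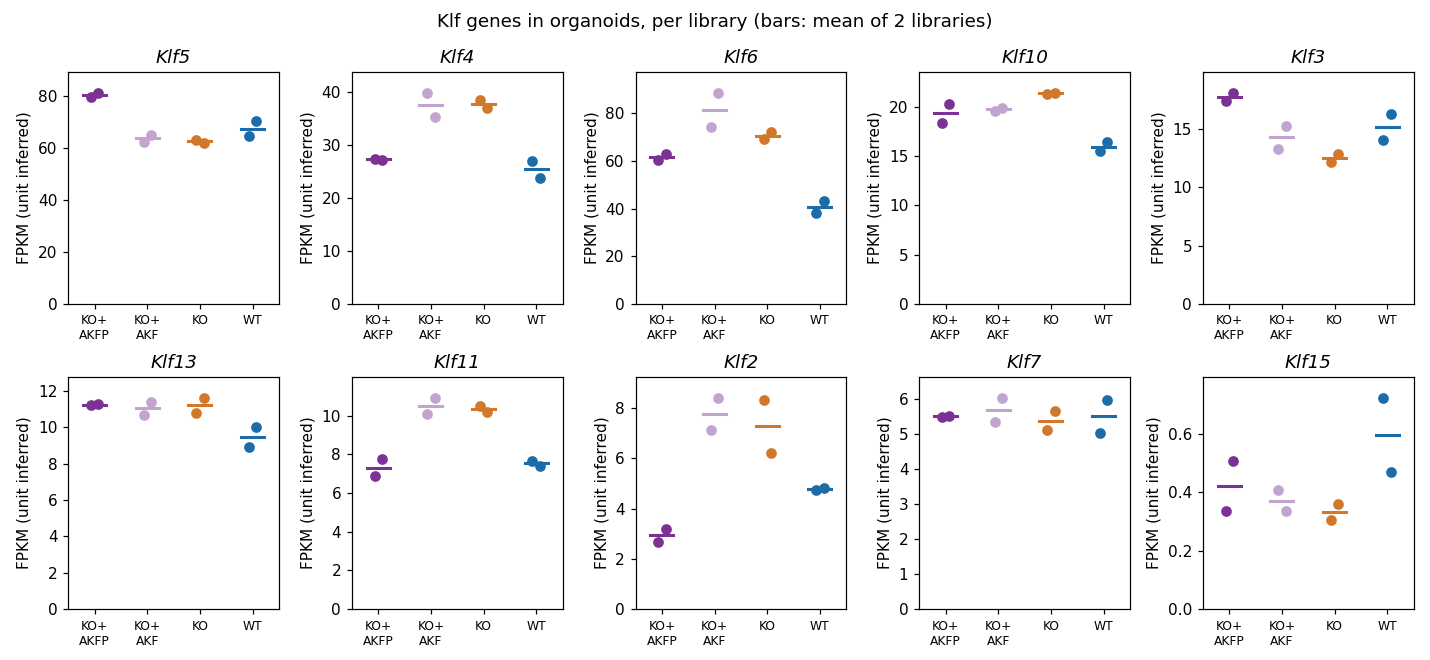
Values of the 10 *Klf* genes in the 8 organoid libraries (points, FPKM with the unit inferred), 2 libraries a group, with bars at the group mean. *Klf6* is highest with AKF (74.5 and 88.6) and lowest in WT (38.3 and 43.2), while *Klf2* and *Klf11* are lower with AKFP than with AKF or in KO alone.

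AKF organoids differed from KO organoids in 0 of 9 members by limma, with none at an unadjusted p under 0.05, where 0.0474% of all genes passed. Of the factors AKF carries, *Ascl2* was called higher than in KO alone (1.56 ± 0.07, adjusted p = 0.00199 by limma). *Klf9* was at 11.1 and 10.7 FPKM with AKF and 7.79 and 7.90 FPKM in KO alone, and was not called. The 95% intervals of the members' differences reached from -0.28 to at most 0.44, so changes beyond that size lie outside them. *Klf6* was at 74.5 and 88.6 FPKM with AKF and 69.1 and 72.3 FPKM in KO (0.20 ± 0.10, 95% interval -0.04 to 0.44).

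AKFP organoids, in which *Klf9* reached 36.0 and 38.4 FPKM, differed from KO organoids in 5 of 9 members, where 26.4% of all genes passed. *Klf2*, *Klf4* and *Klf11* fell and *Klf3* and *Klf5* rose. *Klf2* was at 2.68 and 3.19 FPKM with AKFP and 8.33 and 6.21 FPKM in KO (-1.06 ± 0.14, adjusted p = 0.00432), the largest difference of a member in this comparison, and stayed called in 11 of 11 alternatives. Both AKFP values were also under the WT values of 4.75 and 4.81 FPKM. *Klf11* was at 6.86 and 7.77 FPKM with AKFP and 10.5 and 10.2 FPKM in KO (-0.45 ± 0.08, adjusted p = 0.011), and *Klf4* at 27.4 and 27.1 FPKM with AKFP and 38.4 and 37.0 FPKM in KO (-0.45 ± 0.09, adjusted p = 0.0138). *Klf5* rose to 79.8 and 81.2 FPKM with AKFP, against 63.2 and 61.9 FPKM in KO (0.36 ± 0.07, adjusted p = 0.0128), above both WT libraries too. *Klf3* rose to 17.4 and 18.1 FPKM with AKFP, against 12.2 and 12.9 FPKM in KO (0.47 ± 0.10, adjusted p = 0.0163). *Klf6* (60.3 and 63.0 FPKM with AKFP, -0.19 ± 0.10, adjusted p = 0.188) and *Klf10* (18.4 and 20.3 FPKM, -0.14 ± 0.07, adjusted p = 0.188) did not pass, and stayed above both WT libraries. *Klf2* alone passed without the first KO library. The calls of *Klf3* and *Klf4* were lost without any 1 of the 4 libraries, of *Klf5* without either KO or the second AKFP library and of *Klf11* without the first KO or the first AKFP library, with adjusted p from 0.0511 to 0.094.

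Set against AKF organoids, which share 3 of the 4 factors, AKFP organoids differed in 5 of 9 members, where 25.6% of all genes passed. *Klf2* (-1.15 ± 0.14, adjusted p = 0.00331), *Klf11* (-0.47 ± 0.08, 0.00975), *Klf4* (-0.44 ± 0.09, 0.0147) and *Klf6* (-0.39 ± 0.10, 0.0321) were lower with AKFP, and *Klf5* (0.33 ± 0.07, 0.0163) was higher. *Klf2* and *Klf11* stayed called in 11 of 11 alternatives. *Klf4* and *Klf5* were lost without the first AKF library or either AKFP library (adjusted p 0.0577 to 0.0855), and *Klf6* was lost in 7 of 11, among them without the second AKF library or either AKFP library, equal sums (-0.27, adjusted p = 0.138) and quantile scaling (0.082). The AKFP and AKF groups differ in *Purb*, and *Klf9* was also 1.68 ± 0.07 higher with AKFP (adjusted p = 4.72e-05), while *Ascl2* was lower with AKFP (19.1 FPKM on average with AKFP and 37.7 FPKM with AKF, -0.94 ± 0.07, adjusted p = 0.000643). *Purb* and the levels of *Klf9* and *Ascl2* cannot be told apart. The comparisons with KO and with AKF share the AKFP libraries.

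Immediate early genes moved with several members in organoids as well. Of 17 tested, 8 rose in KO against WT organoids (median 0.43), with *Junb* at 0.81 ± 0.07 (adjusted p = 0.00083), *Jund* at 0.60 ± 0.07 (0.00197) and *Atf3* at 0.62 ± 0.08 (0.00244). With AKFP against KO 13 of 17 fell (median -0.56), with *Junb* at -1.01 ± 0.07 (adjusted p = 0.000537), *Atf3* at -0.92 ± 0.08 (0.000935) and *Zfp36* at -0.67 ± 0.07 (0.00181). Their part in the *Klf2*, *Klf4*, *Klf6*, *Klf10* and *Klf11* values was not tested. Marker sums also differed: the goblet list summed to 1880 and 1960 FPKM with AKFP, 2130 and 2370 FPKM with AKF, 1770 and 1830 FPKM in KO alone, and 793 and 1040 FPKM in WT. The enterocyte list summed to 684 and 697 FPKM with AKFP, 1160 and 1900 FPKM with AKF, 1380 and 1390 FPKM in KO alone, and 2430 and 2630 FPKM in WT. Immune markers summed to 5.67 and 5.87 FPKM with AKFP, 8.66 and 9.26 FPKM with AKF, 7.55 and 9.46 FPKM in KO alone, and 3.89 and 4.79 FPKM in WT, with 6 of 8 under 1 FPKM in every organoid library. Stromal markers summed to 2.74 and 3.35 FPKM with AKFP, 4.46 and 4.70 FPKM with AKF, 4.80 and 5.18 FPKM in KO alone, and 2.49 and 2.61 FPKM in WT, with 5 of 7 under 1 FPKM. Both sums were thus higher in KO than in WT and lower with AKFP than in KO, as *Klf2*, *Klf4* and *Klf11* were. The epithelial enteroendocrine list did the same at higher sums: 299 and 347 FPKM with AKFP, 669 and 699 FPKM with AKF, 632 and 647 FPKM in KO alone, and 248 and 310 FPKM in WT. The stem list went the other way, at 605 and 607 FPKM with AKFP, 299 and 310 FPKM in KO alone, and 577 and 665 FPKM in WT. Of single markers, *Cd68*, a macrophage gene (1.16 ± 0.12, adjusted p = 0.00138), and *Vim*, a mesenchymal gene (0.77 ± 0.09, 0.00197), were called higher in KO than in WT. *Vim* (-1.01 ± 0.09, adjusted p = 0.0011) and *Egfl7*, an endothelial gene (-0.50 ± 0.11, 0.0197), were called lower with AKFP than in KO. The stromal marker *Pdgfrb* was called higher there (0.59 ± 0.13, adjusted p = 0.0189 by limma), at low means of 1.23 FPKM with AKFP and 0.476 FPKM in KO. Calls in the stromal list were thus split, 1 higher and 1 lower. The part of cell makeup in these values was not tested.

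The other genes of the pathway gave smaller counts in organoids. Their background is the share of all genes called, 28.2% in KO against WT and 26.4% with AKFP against KO. Of 11 corepressor and degradation genes 1 rose, *Ctbp2* (0.30 ± 0.08, adjusted p = 0.0281), and 3 fell in KO against WT, among them *Hdac1* (-0.41 ± 0.08, 0.0116) and *Wwp1*, a ubiquitin ligase gene known to act on Klf5 (-0.47 ± 0.10, 0.0139). With AKFP against KO 2 rose, *Sin3a* (0.42 ± 0.08, adjusted p = 0.0123) and *Hdac2* (0.40 ± 0.10, 0.0248), and 1 fell, *Stub1* (-0.27 ± 0.07, 0.0259). Among upstream inputs 3 of 16 rose and 2 fell in KO against WT, and *Tgfb1*, the ligand that induces *Klf10* and *Klf11*, was among those higher (0.61 ± 0.09, adjusted p = 0.00402), with *Srf* (0.51 ± 0.11, 0.0184) and *Egr1* (0.46 ± 0.09, 0.0117). With AKFP against KO *Srf* (-0.41 ± 0.11, adjusted p = 0.038) and *Egr1* (-0.35 ± 0.09, 0.0314) fell, and *Smad4*, the shared partner of the TGF-beta Smads, was 1 of 3 that rose (0.45 ± 0.07, 0.00678). Of the 13 *Klf4* or *Klf5* target genes tested 4 rose and 1 fell with AKFP against KO, with *Odc1* (0.38 ± 0.06, adjusted p = 0.00848), *Ccnd1*, a cyclin gene (0.35 ± 0.08, 0.0246), and *Birc5* (0.28 ± 0.07, 0.0314) higher. Among Sp factors, which share the Klf binding letters, *Sp5*, a Wnt target, rose in KO against WT (1.12 ± 0.08, adjusted p = 0.000476) and fell with AKFP against KO (-0.67 ± 0.08, 0.00316), while *Sp3* rose with AKFP (0.41 ± 0.09, 0.0198).

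**Figure D5:**
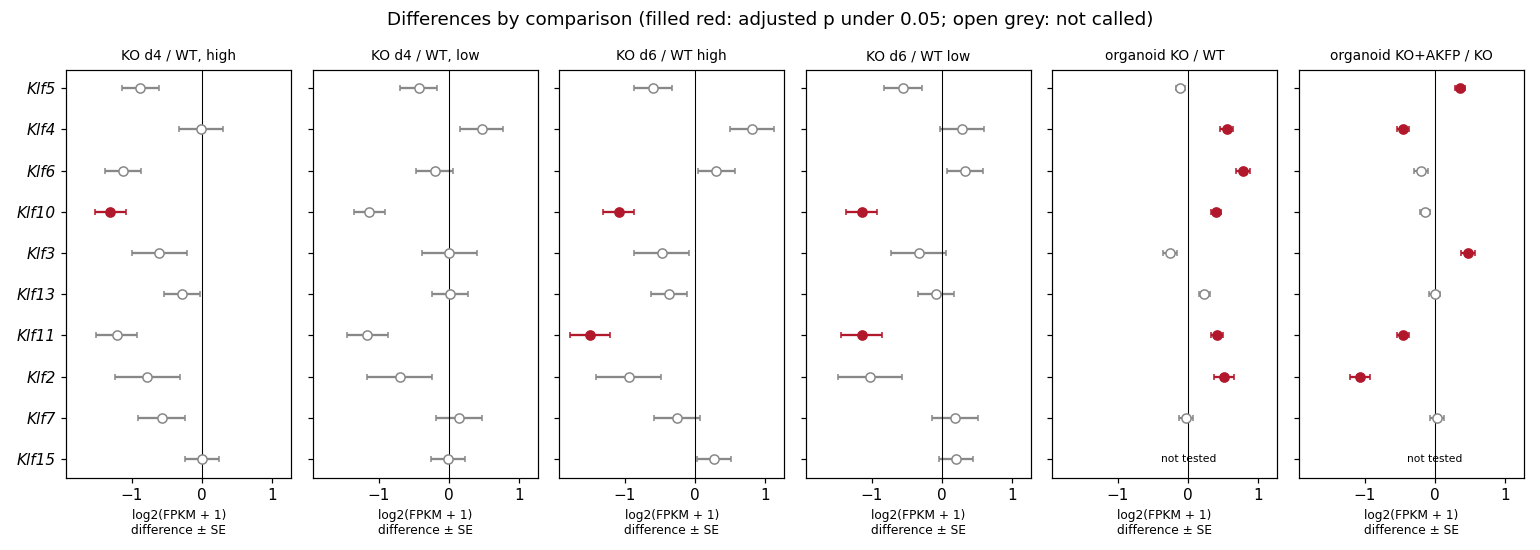
Difference of each *Klf* gene on the log2(FPKM + 1) scale (horizontal axis, points with SE) in 6 comparisons, each written as the group on top over its reference, with filled points at an adjusted p under 0.05 by limma. *Klf10* and *Klf11* lie to the left in the 4 tissue panels and to the right in KO against WT organoids, and *Klf2*, *Klf4* and *Klf11* lie to the left with AKFP.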

How the data were processed

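RNA was sequenced in 12 tissue and 8 organoid libraries. The deposited tissue files hold FPKM per gene, per the file headers. The deposited organoid table names no unit, and its values were taken as FPKM from their range and rows. The submitters' processing notes name mm10 and the tools StringTie (1.3.3b) and HISAT2 (2.1.0). No normalization was added. Symbols and positions came from GENCODE M21 (GRCm38, which is mm10) for 54809 of 54838 identifiers, and promoters from RefSeq (GRCm38.p6).

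limma 3.58.1 in R 4.3.3 was fitted to log2(FPKM + 1), with 1 mean per group and a trend, on genes of at least 1 FPKM in 2 or more libraries, for the 10 tissue libraries of groups with 2 libraries and for the 8 organoid libraries. The fits shared no samples. Differences on this scale understate those of low genes. The p-values, two-sided, were adjusted by Benjamini-Hochberg over every gene of the fit, with 0.05 as the threshold, in 13 comparisons, 2 of them added after the values were seen. Intervals of differences are 95% and moderated. The fit was tested on simulated data. No libraries were identical. All members were named in every comparison, with up to 3 called genes per list, the smallest p first, and the 3 genes most like each of the 4 most abundant members, among genes with a mean of at least 5 FPKM, leaving out predicted, unnamed and small RNA genes. The members and lists were chosen with earlier results of these data known. Depth was estimated from steps in the values of 21507 one-exon genes. Alternatives were the pseudocount, the filter, the scaling, the groups in the fit, the replicate block and leaving out libraries.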

Additional observations from a re-analysis of the deposited data

Results flagged for a closer look

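*Mettl3* deletion went with opposite directions of some *Klf* genes in tissue at day 4 and in organoids, all libraries of KO lying below WT in a day 4 gate and above WT in organoids. The genes named here were picked by that rule. Of all genes tested, KO lay wholly below WT at day 4 for 21.6% in Lgr5-high and 24.3% in Lgr5-low cells. In organoids 36.6% lay wholly above. The share of all genes that meet both was not counted. The difference between the organoid change and the tissue change was not tested, because the tables were normalized separately. On the log2 scale, the organoid change minus the Lgr5-high change was 1.91 for *Klf6* (0.78 in organoids and -1.13 in tissue), 1.71 for *Klf10* (0.40 and -1.31), 1.63 for *Klf11* (0.41 and -1.22) and 1.29 for *Klf2* (0.51 and -0.78). Against the Lgr5-low change it was 1.57 for *Klf11* (0.41 and -1.16), 1.53 for *Klf10* (0.40 and -1.13) and 0.98 for *Klf6* (0.78 and -0.20). For *Klf6* the contrast is with day 4 alone: in tissue it was at 40.0 and 39.1 FPKM at day 3 and 39.2 and 39.6 FPKM at day 6, above the 28.5 to 35.5 FPKM of all 4 WT libraries, as in organoids. Of the tissue values only that of *Klf10* in Lgr5-high cells passed the test. The organoids were sorted as live cells with no Lgr5 gate, and the WT organoids had ethanol where the WT tissue is labelled untreated.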

How the results depend on the processing

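With 2 libraries a group, counts of called members moved with the processing. KO day 4 against WT in Lgr5-high cells had 1 called member. It had 0 with no filter on low values, with equal FPKM sums, with median-of-ratios scaling, with a fit of the compared groups alone and without the first KO day 4 Lgr5-high and KO day 6 libraries (added after seeing the data), 2 with quantile normalization or the replicate block, and 0 to 2 leaving out 1 library each. In Lgr5-low cells the added setting gave 1, against 0. KO day 4 high against low gave 0 to 2 leaving out 1 library, against 0. KO day 6 against WT Lgr5-high gave 0 to 2 leaving out 1 library, against 2, and 3 with median-of-ratios scaling or the compared groups alone, *Klf4* being added as higher. KO day 6 against WT Lgr5-low gave 1 with no filter, with each of the 3 scalings and with the added setting, and 0 leaving out any 1 library, against 2. KO day 6 against KO day 4 Lgr5-high gave 0 with no filter, equal sums, only the compared groups and the added setting, and 0 to 2 leaving out 1 library, against 1. Organoid KO against WT gave 3 with equal sums and 3 to 4 leaving out 1 library, against 5. AKFP against KO gave 1 to 2, and AKFP against AKF 2 to 5, leaving out 1 library, against 5 each. The causes were not tested, except that leaving out a library leaves 1 in its group, assumed to vary like the others.

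Of 1516 member values under alternatives 0 changed direction while called, 70 lost a call and 16 gained one. Among values called in neither fit, 153 changed sign, counting changes to or from a rounded 0. There 107 moved by more than the SE of the main fit, and a value may be in both counts. Counts over all genes moved more. With equal FPKM sums 34 in place of 136 genes were called at day 4 in Lgr5-high cells, 6 in place of 61 in Lgr5-low, 57 in place of 155 between WT gates, 1809 in place of 2828 and 628 in place of 1479 at day 6 against the high and low gates, and 67 in place of 414 at day 6 against KO day 4 Lgr5-high. In the order day 4 high, day 4 low and WT gates, the counts were 29, 21 and 32 with no filter, 287, 143 and 329 with quantile scaling, 0, 1 and 1432 with the compared groups alone and 283, 109 and 432 with the replicate block, which called 276 in place of 0 between KO gates at day 4. AKFP against AKF had 1800 in place of 3239 with the compared groups alone. Equal sums moved the median of all genes to -0.46 in place of -0.16 and -0.29 in place of -0.08 at day 6, to -0.13 in place of -0.02 at day 4 in Lgr5-high cells and to 0.15 in place of 0.04 with AKFP. Of calls, 41% were higher in organoid KO against WT in place of 59.1%, 69.3% with AKFP against KO in place of 49.9%, 68.6% against AKF in place of 50.2%, and 28.6% and 38.5% at day 6 in place of 45.9% and 54.2%. Median-of-ratios scaling gave 57.1% in place of 45.9% at day 6 against Lgr5-high, and it and quantile scaling gave 57.4% and 55.1% at day 4 in Lgr5-high cells in place of 69.1%.

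Replicate numbers correlated by 0.0243 to 0.52 in tissue and -0.0392 to 0.0911 in organoids over deviations from group means. Between the gates the correlation was 0.439 in WT and 0.339 in KO day 4 cells. The highest, 0.52, was between KO day 4 Lgr5-high and KO day 6 cells. The labels do not say that a number marks an animal, so the main fit did not pair libraries. Whether the gates share animals was not tested. The replicate block called 2 members at day 4 in Lgr5-high cells, 3 in each day 6 comparison with WT (*Klf2* added as lower, adjusted p = 0.0114 and 0.0133), 5 in organoid KO against WT (*Klf3* added as lower, 0.0388, and *Klf2* lost, 0.0577) and 6 in AKFP against AKF (*Klf3* added as higher, 0.0283). Few fragments limit *Klf15* most, then *Klf2* in organoids and *Klf2* and *Klf7* in tissue.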
